A study of Homo sapiens with 12 samples.

Results

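Small nucleolar RNA (snoRNA) host genes were taken as every gene named SNHG with a number, together with GAS5, ZFAS1, EPB41L4A-AS1 and DANCR. The rule found 32 of the 60609 annotated genes. Of these, 29 had a TPM (abundance per transcript length, scaled to the same sum in every library and added over the transcripts of a gene) of 1 or more in at least 2 of the 12 libraries and were tested. SNHG27, SNHG28 and SNHG31 stayed under 1 TPM in every library and were not tested.

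All libraries came from the established line NS-SV-AC, immortal human cells derived from salivary acini. Cells received the solvent DMSO, the adenosine analogue 2-CM (2'-C-methyladenosine) or the plant polyphenol RES (resveratrol). The dose was 20, read here as micromolar, given 24 h ahead of transfection and repeated with it. Each compound was combined with transfection of poly I:C (double-stranded RNA made in vitro) for 14 h, or with a control transfection named depc in the labels, which made 6 groups of 2 libraries. The series concerns double-stranded RNA of mitochondria in Sjögren's syndrome, an autoimmune disease of exocrine glands, and the groups address how each compound alters the response to poly I:C. The labels do not say that replicates were separate cultures, so p-values measure only the spread between these libraries, which may be technical.

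A snoRNA host gene carries snoRNAs in its introns. After splicing, the introns are trimmed to the mature snoRNAs, which guide the modification of ribosomal RNA and other small RNAs in the nucleolus and in Cajal bodies. The spliced exons of most of these genes code for no long protein, but many are exported and bound by ribosomes at short reading frames. Nonsense-mediated decay, which needs translation, then removes them quickly, so that host RNAs such as GAS5 build up when translation or decay is blocked. Many host genes start with a terminal oligopyrimidine tract, a C followed by a run of T or C, which they share with the genes of ribosomal proteins. Double-stranded RNA activates the kinase PKR, which lowers translation.

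Each library held an estimated 31.2 to 49.4 M reads on annotated transcripts, and 13438 to 16554 genes reached 1 TPM. Replicates of some groups stood apart: 3654 genes differed by 1 or more (log2) between the DMSO poly I:C replicates and 4951 between the RES depc replicates, against 246 between the 2-CM poly I:C replicates. In these 3 groups 4, 1 and 1 of the 29 host genes differed as much. Across genes, the difference between replicates tracked GC content, with a Spearman correlation of -0.78 to -0.43 in 5 groups and 0.77 in RES poly I:C, and its part in comparisons with RES poly I:C was not tested. Of the epithelial markers, KRT8 and KRT18 had mean levels of 1139 and 838 TPM, EPCAM reached 1 TPM in 2 libraries, KRT5 and KRT14 were at 0 TPM, and CDH1 and KRT19 stayed under 1. Of 11 salivary acinar markers, SLC12A2 and BHLHA15 passed 1 TPM in at least 2 libraries. AQP5, MUC7, PRB1 and STATH were at 0 TPM in every library, and the mesenchymal gene VIM had a mean of 597 TPM. The secretory genes that define acinar cells were thus at or near 0 in these libraries. The summed level of the 7 epithelial markers was 1682 to 3530 TPM in depc and 1098 to 1733 TPM in poly I:C libraries, and its part in the results below was not tested. In bulk RNA, fewer cells of a type and less RNA per cell cannot be told apart.

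All 32 genes were long non-coding RNA genes in GENCODE 44. RefSeq placed 149 snoRNA genes within the spans of the 29 tested host genes. SNHG14, the long host on chromosome 15, held 83 of them, GAS5 held 11 and SNHG1 held 9. By symbol, 12 tested hosts carried only box C/D snoRNAs, the guides of ribose methylation. Another 10 carried only box H/ACA snoRNAs, the guides of pseudouridylation, 3 carried both and 4 carried a scaRNA, a guide that acts in Cajal bodies. GC content of the exon bases had a median of 46.8% over the tested hosts and 48.4% over all 17185 tested genes. Their exon length, with a median of 4266 bases against 4179, was also close to that of other genes, while their median mean level was 22.0 TPM against 7.68.

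The start sites of the host genes are shown because members that share a start motif can be set beside their response. RefSeq (GRCh38.p14) held a promoter for 25 of the 29 tested hosts, and each equalled the genome of that build. The motif CTTTT, the motif CTTTC and the motif CCTTT, whose matches can overlap, were searched on the gene strand, and on the other strand for comparison. These letters were chosen after the promoters had been read. One of the motifs began within 2 bases of the annotated start in 6 of the 25 hosts (24.0%), against 2.61% of 35116 promoters. Within 50 bases on either side it was present in 14 (56.0%) against 24.1%, and on the other strand in 7 (28.0%) against 24.1%. The 6 windows run from 30 bases before the start to 30 after it, 5′ to 3′ on the gene strand, with the motifs in capitals. The letter after the first 30 is the RefSeq start, which differs from the outermost end of the gene in the deposited annotation for some hosts, ZFAS1, SNHG32, SNHG12 and SNHG5 among them.
SNHG12: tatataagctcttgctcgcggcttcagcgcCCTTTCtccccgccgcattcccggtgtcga
SNHG19: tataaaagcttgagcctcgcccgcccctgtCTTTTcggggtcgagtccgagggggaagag
SNHG32: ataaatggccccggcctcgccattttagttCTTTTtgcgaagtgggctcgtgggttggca
SNHG4: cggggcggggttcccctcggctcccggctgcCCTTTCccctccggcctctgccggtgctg
SNHG5: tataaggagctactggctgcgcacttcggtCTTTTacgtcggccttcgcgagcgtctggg
ZFAS1: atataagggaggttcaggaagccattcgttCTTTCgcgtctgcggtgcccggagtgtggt
These windows lie at chr1:28581844-28581903 (minus strand), chr16:2155329-2155388 (minus), chr6:31834886-31834945 (plus), chr5:139274071-139274130 (plus), chr6:85678704-85678763 (minus) and chr20:49278612-49278671 (plus). The same window of 4 hosts whose responses are described below, SNHG3, SNHG1, GAS5 and DANCR, held none of the 3 motifs.
SNHG3: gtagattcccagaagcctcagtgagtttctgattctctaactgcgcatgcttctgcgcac
SNHG1: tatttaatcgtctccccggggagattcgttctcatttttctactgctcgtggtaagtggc
GAS5: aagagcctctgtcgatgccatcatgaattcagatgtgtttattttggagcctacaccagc
DANCR: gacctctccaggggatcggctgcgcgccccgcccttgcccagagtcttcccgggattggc
They lie at chr1:28505913-28505972 (plus), chr11:62855856-62855915 (minus), chr1:173869016-173869075 (minus) and chr4:52712364-52712423 (plus). The GAS5 and SNHG3 windows lie wholly upstream of those genes as the deposited files give them. The search says only that these letters are not at the RefSeq start, which need not be the start used in these cells.

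Host genes differed widely in level. Means over all libraries ran from 0.467 TPM for SNHG14 to 377 TPM for SNHG29 among the 29 tested hosts. The 3 untested hosts had means from 0.0887 to 0.277 TPM. SNHG29 alone held 25.2% of the summed level of the 32 genes. The 5 most abundant, SNHG29, GAS5, SNHG1, SNHG16 and SNHG15, together held 58.3%. SNHG6, SNHG8, ZFAS1, DANCR and SNHG7 followed, with means from 83.6 down to 43.4 TPM. Of the 32 genes, 12 had a mean under 10 TPM. Estimated reads per library ran from 6556 to 18309 for SNHG29 but from 1 to 34 for SNHG22, so that the rare hosts SNHG21, SNHG22 and SNHG14 were measured with little precision.

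Added together, host RNAs made up more of the total TPM in each poly I:C group than in its control. The summed level was 1131 ± 128 TPM (SD, n = 2) with DMSO depc and 1717 ± 287 with DMSO poly I:C. With 2-CM it was 1191 ± 199 and 1994 ± 10.6, and with RES 1281 ± 234 and 1647 ± 27.7. The lowest poly I:C library, DMSO poly I:C replicate 2 at 1514 TPM, lay above the highest depc library, RES depc replicate 1 at 1447 TPM, so the 2 transfections did not overlap. This sum is dominated by a few genes and was not tested. Under 2-CM the typical gene also lay higher after poly I:C on the TPM scale, by a median of 0.61 (log2). Under DMSO and RES the corresponding medians were -0.14 and -0.03. For the tested hosts under 2-CM the median was 0.13 with median-of-ratios scaling and -0.03 after GC adjustment. The part of this common shift in the 2-CM sum was not tested.

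The question of which hosts responded to poly I:C with the solvent alone was answered by 2 calls. SNHG3 and SNHG32 rose, and no host fell, by limma on log2(TPM + 1) at a Benjamini-Hochberg adjusted p under 0.05 over all 17185 genes. These 2 of 29 stand beside 0.797% of all genes called higher and 3.28% called lower. Unadjusted, 8 of 29 hosts had p under 0.05, beside 3394 of 17185 genes. Leaving out any 1 of the DMSO or 2-CM libraries gave 0 calls, leaving out RES depc replicate 1 gave 3, and GC adjustment gave 11, all higher. The shares of all genes called in these other fits are not given here, so those counts are not read as an excess. The median log2 fold change of the hosts was 0.43, against -0.14 for all genes, and 25 of 29 lay above the median of all genes. After GC adjustment the medians of hosts and of all genes were 0.42 and -0.02. In 14 hosts both poly I:C libraries lay above both depc libraries, against 11.5% of all genes, and in 3 (SNHG14, SNHG17 and SNHG22) both lay below, against 33.4%. SNHG14 and SNHG22 reached 1 TPM only in depc libraries, a DMSO library among them for each. The filter itself thus favours a lower value with poly I:C in these hosts.

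SNHG3 (ENSG00000242125.3, chr1:28505980-28510892, plus strand) hosts the H/ACA snoRNAs SNORA73A and SNORA73B. It measured 22.5 and 15.6 TPM in DMSO depc, 19.7 and 19.0 in 2-CM depc and 19.6 and 14.5 in RES depc. After poly I:C it measured 53.9 and 44.7 TPM with DMSO, 66.6 and 66.5 with 2-CM and 33.6 and 28.0 with RES. Every poly I:C library lay above every depc library. The log2 fold change was 1.34 ± 0.23 (SE) with DMSO (adjusted p = 0.0264, limma), 1.73 ± 0.23 with 2-CM (adjusted p = 0.0104) and 0.82 ± 0.23 with RES (adjusted p = 0.177). The change with 2-CM was below that with DMSO under median-of-ratios scaling (0.90 against 1.54) and after GC adjustment (0.89 against 1.33), but not from FPKM (1.54 against 1.48). SNHG3 shares its strand and part of its span with RCC1, a nucleotide exchange factor of the small GTPase Ran, whose mean level of 58.6 TPM was higher than that of SNHG3 and whose change was 0.36 with DMSO (adjusted p = 0.341, limma). Some reads could be assigned to either gene, and the part of this in the SNHG3 result was not tested.

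SNHG32 (ENSG00000204387.14, chr6:31834608-31839766, plus strand) hosts SNORD48 and SNORD52 in the major histocompatibility region. Its levels were 19.9 and 19.5 TPM in DMSO depc, 19.1 and 21.4 in 2-CM depc and 28.5 and 33.4 in RES depc. The poly I:C values were 40.6 and 39.0 TPM with DMSO, 28.5 and 33.4 with 2-CM and 42.2 and 36.7 with RES. The libraries did not overlap under any compound, and the RES depc pair was level with the 2-CM poly I:C pair. The log2 fold change was 0.98 ± 0.18 with DMSO (adjusted p = 0.0296, limma), 0.59 ± 0.18 with 2-CM (adjusted p = 0.0331) and 0.34 ± 0.18 with RES (adjusted p = 0.448). The change with 2-CM lay near the median of all genes, 0.61, and was -0.23 under median-of-ratios scaling. With DMSO, SNHG32 had a larger value under that scaling, 1.17, and did not pass the test (adjusted p = 0.144, limma).

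GAS5 (ENSG00000234741.8, chr1:173858559-173868882, minus strand), a host of 10 box C/D snoRNAs and 1 H/ACA snoRNA, is named for its build-up in growth-arrested cells. It measured 123 and 92.4 TPM in DMSO depc, 119 and 83.7 in 2-CM depc and 150.2 and 108 in RES depc. Under poly I:C it measured 223 and 136 TPM with DMSO, 247 and 239 with 2-CM and 168 and 183 with RES. Within each compound both poly I:C libraries were higher, although DMSO poly I:C replicate 2 at 136 lay under RES depc replicate 1. The log2 fold change of GAS5 was 0.70 ± 0.29 with DMSO (adjusted p = 0.215, limma), 1.27 ± 0.29 with 2-CM (adjusted p = 0.0274) and 0.46 ± 0.29 with RES (adjusted p = 0.541). The change of GAS5 with 2-CM was 0.42 (adjusted p = 0.182, limma) under median-of-ratios scaling and -0.17 after GC adjustment.

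SNHG1 (ENSG00000255717.7, chr11:62851984-62855953, minus strand), a host of 8 box C/D snoRNAs, measured 119 and 87.5 TPM in DMSO depc, 127 and 82.5 in 2-CM depc and 145 and 89.2 in RES depc. In the poly I:C libraries it measured 241 and 164 TPM with DMSO, 208 and 203 with 2-CM and 179.9 and 184 with RES. SNHG1 and SNHG3 were the 2 hosts in which every poly I:C library exceeded every depc library, which held for 1.33% of all genes. The log2 fold change of SNHG1 was 0.96 ± 0.31 with DMSO (adjusted p = 0.118, limma), 1.00 ± 0.31 with 2-CM (adjusted p = 0.0328) and 0.67 ± 0.31 with RES (adjusted p = 0.369). The change of SNHG1 with 2-CM was 0.15 (adjusted p = 0.639, limma) under median-of-ratios scaling and -0.46 after GC adjustment, while with DMSO it passed after GC adjustment (0.90, adjusted p = 0.0372).

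ZFAS1 (ENSG00000177410.13, chr20:49278178-49299600, plus strand) hosts SNORD12, SNORD12B and SNORD12C. Its levels were 53.9 and 43.6 TPM in DMSO depc, 61.3 and 38.4 in 2-CM depc and 74.1 and 68.8 in RES depc, and with poly I:C 108 and 74.01, 93.5 and 98.9, and 93.6 and 107 in the same order. The libraries of each compound did not overlap, but DMSO poly I:C replicate 2 was level with RES depc replicate 1. The log2 fold change was 0.87 ± 0.26 with DMSO (adjusted p = 0.101, limma), 0.97 ± 0.26 with 2-CM (adjusted p = 0.0288) and 0.48 ± 0.26 with RES (adjusted p = 0.468). The change of ZFAS1 with 2-CM was 0.13 (adjusted p = 0.714, limma) under median-of-ratios scaling and 0.19 (adjusted p = 0.475) after GC adjustment, while with DMSO it passed after GC adjustment (0.87, adjusted p = 0.0177). ZNFX1, a helicase that senses viral RNA, overlaps ZFAS1 on the opposite strand at a mean of 23.8 TPM. It had log2 fold changes of 1.07, 1.56 and 1.05 under DMSO, 2-CM and RES (adjusted p = 0.0244, 0.00503 and 0.0544, limma). The file headers name no strand option, and the part of ZNFX1 reads in the ZFAS1 values was not tested.

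SNHG19 (ENSG00000260260.1, chr16:2154797-2155358, minus strand) is a short host of SNORD60 with a single annotated transcript. It measured 11.6 and 8.79 TPM in DMSO depc, 11.995 and 14.6 in 2-CM depc and 10.6 and 7.47 in RES depc, and with poly I:C 17.7 and 15.4, 24.2 and 28.8, and 12.2 and 8.71. The RES libraries overlapped and the other pairs did not. Its log2 fold change was 0.66 ± 0.26 with DMSO (adjusted p = 0.203, limma), 0.94 ± 0.26 with 2-CM (adjusted p = 0.0294) and 0.19 ± 0.26 with RES (adjusted p = 0.791). With 2-CM it was 0.13 (adjusted p = 0.728, limma) under median-of-ratios scaling and 1.11 (adjusted p = 0.00759) after GC adjustment. With DMSO SNHG19 passed after GC adjustment (0.97, adjusted p = 0.0125).

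EPB41L4A-AS1 (ENSG00000224032.7, chr5:112160526-112164818, plus strand), the host of SNORA13, measured 5.82 and 6.51 TPM in DMSO depc, 6.22 and 8.11 in 2-CM depc and 10.3 and 10.9 in RES depc. It measured, after poly I:C, 9.09 and 8.67 TPM with DMSO, 11.6 and 9.31 with 2-CM and 10.55 and 10.1 with RES. The poly I:C libraries lay above their controls with DMSO and 2-CM, and the RES libraries overlapped at the level of the others with poly I:C. No change of EPB41L4A-AS1 passed the test, with log2 fold changes of 0.47, 0.49 and -0.04 (adjusted p = 0.271, 0.0797 and 0.946, limma). With 2-CM its direction turned to -0.28 under median-of-ratios scaling (adjusted p = 0.485, limma) and to -0.71 after GC adjustment (adjusted p = 0.172). The authors' deposited table gives -0.28 with 2-CM.

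DANCR (ENSG00000226950.7, chr4:52712404-52720351, plus strand), the host of SNORA26, differed from most hosts. It measured 77.2 and 68.8 TPM in DMSO depc, 83.3 and 87.0 in 2-CM depc and 49.2 and 58.9 in RES depc. With poly I:C it measured 75.6 and 83.2 TPM with DMSO, 61.5 and 67.8 with 2-CM and 60.4 and 40.8 with RES. Only the 2-CM libraries did not overlap, with poly I:C lower. The log2 fold changes of 0.12, -0.39 and -0.11 did not pass the test (adjusted p = 0.841, 0.135 and 0.838, limma). With 2-CM, DANCR passed as lower under median-of-ratios scaling (-1.24, adjusted p = 0.0332, limma) and after GC adjustment (-1.23, adjusted p = 0.0314).

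**Figure D1:**
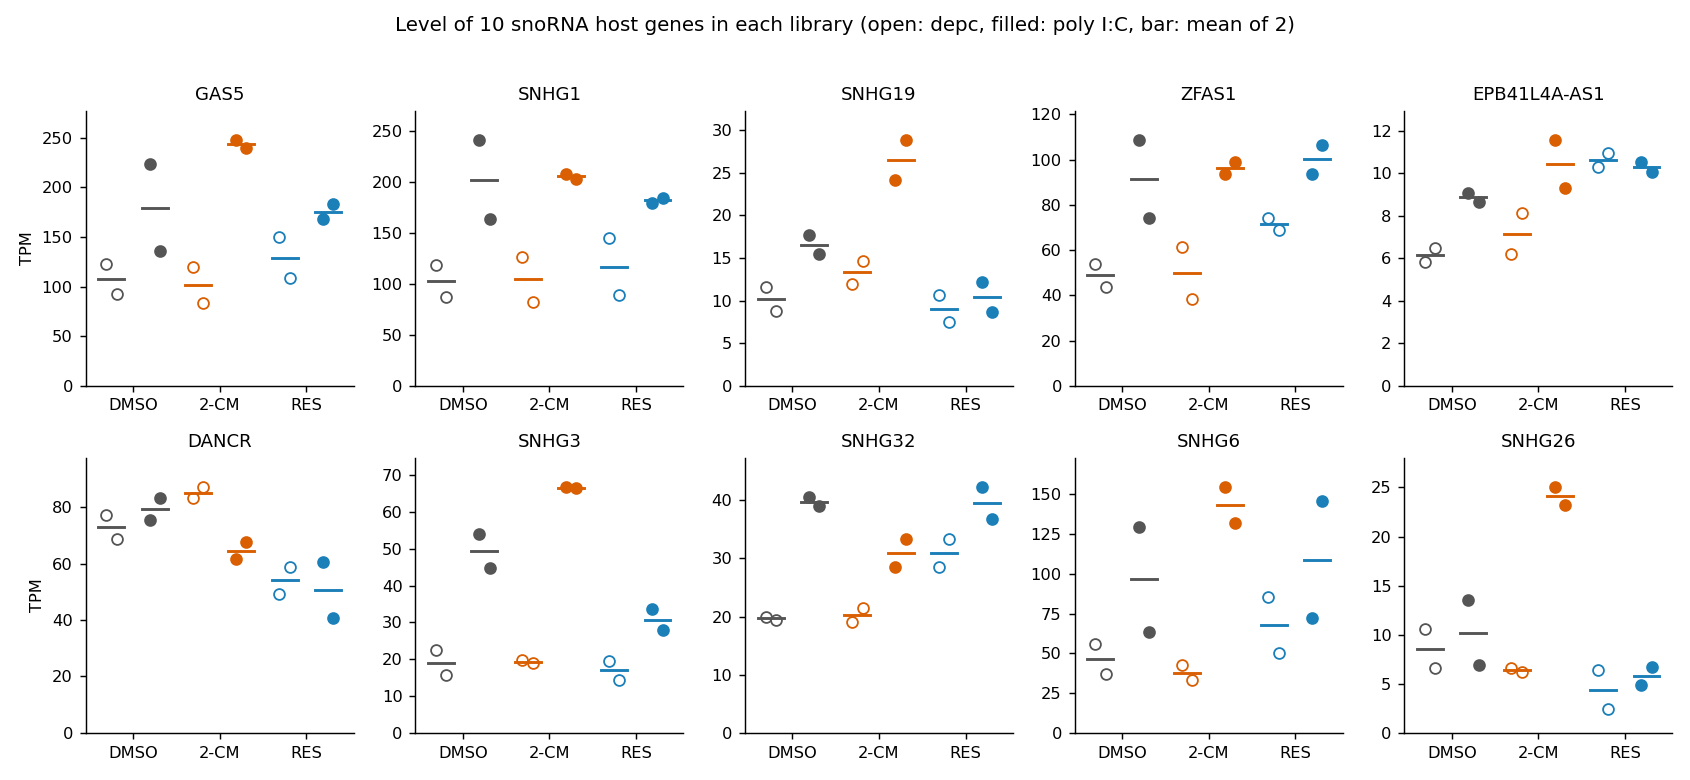
Levels of the 10 named host genes in TPM in each of the 12 libraries. Open circles are depc libraries, filled circles poly I:C libraries and bars the mean of 2. SNHG3 lay between 14.5 and 22.5 TPM in the depc libraries and between 28.0 and 66.6 TPM in the poly I:C libraries.

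The response to poly I:C in cells given 2-CM was the next comparison. Of the 29 hosts 16 rose and none fell by limma, beside 37.5% of all genes called higher and 11.8% called lower. The median log2 fold change was 0.89 for the hosts and 0.61 for all genes, so the hosts' median lay 0.27 above that of all genes on the TPM scale, and 18 of 29 hosts lay above the median of all genes. The medians of hosts and of all genes were 0.72 and 0.40 from FPKM, 0.13 and 0.02 with median-of-ratios scaling, and -0.03 and -0.01 after GC adjustment. In 24 hosts both poly I:C libraries lay above both depc libraries, against 62.6% of all genes, and in 4 (DANCR, SNHG11, SNHG15 and SNHG25) both lay below, against 23.9%. The largest changes were those of SNHG6, SNHG26 and SNHG3. With median-of-ratios scaling, which brings the median of all genes to 0.02, 6 hosts passed the test, 4 higher and 2 lower. With each library adjusted for GC content 10 passed, 7 higher and 3 lower. The shares of all genes called in these 2 fits are not given here, so the counts are not set against other genes. With no filter on low genes most of the 16 calls were lost. Leaving out any 1 of the 4 libraries with 2-CM gave 0 calls among the hosts.

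SNHG6 (ENSG00000245910.8), the host of SNORD87, had the largest change with 2-CM. Its levels were 56.2 and 37.3 TPM in DMSO depc, 42.6 and 33.2 in 2-CM depc and 85.8 and 50.2 in RES depc. After poly I:C they were 129.6 and 63.5 TPM with DMSO, 154 and 132 with 2-CM and 72.5 and 146 with RES. The RES libraries overlapped, while the DMSO and 2-CM libraries did not. The log2 fold change was 0.97 ± 0.44 with DMSO (adjusted p = 0.27, limma), 1.90 ± 0.44 with 2-CM (adjusted p = 0.0274) and 0.64 ± 0.44 with RES (adjusted p = 0.588). After GC adjustment the change of SNHG6 with 2-CM was 0.18 (adjusted p = 0.334, limma), while with DMSO it passed (0.92, adjusted p = 0.00328).

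SNHG26 (ENSG00000228649.9, chr7:22854126-22872945, plus strand), the host of SNORD93, measured 10.6 and 6.63 TPM in DMSO depc, 6.64 and 6.21 in 2-CM depc and 6.37 and 2.47 in RES depc. With poly I:C it measured 13.5 and 6.90 TPM with DMSO, 25.0 and 23.2 with 2-CM and 4.92 and 6.71 with RES. The 2-CM poly I:C pair was the only one above all other libraries. Its log2 fold change was 1.76 ± 0.42 with 2-CM (adjusted p = 0.0274, limma), against 0.19 with DMSO (adjusted p = 0.882) and 0.42 with RES (adjusted p = 0.719). The difference between 2-CM and DMSO in this response, 1.57 ± 0.59, did not pass the test (adjusted p = 0.161, limma). The change with 2-CM was 0.97 under median-of-ratios scaling and 0.45 after GC adjustment, and the difference from DMSO was 0.60 and 0.31.

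**Figure D2:**
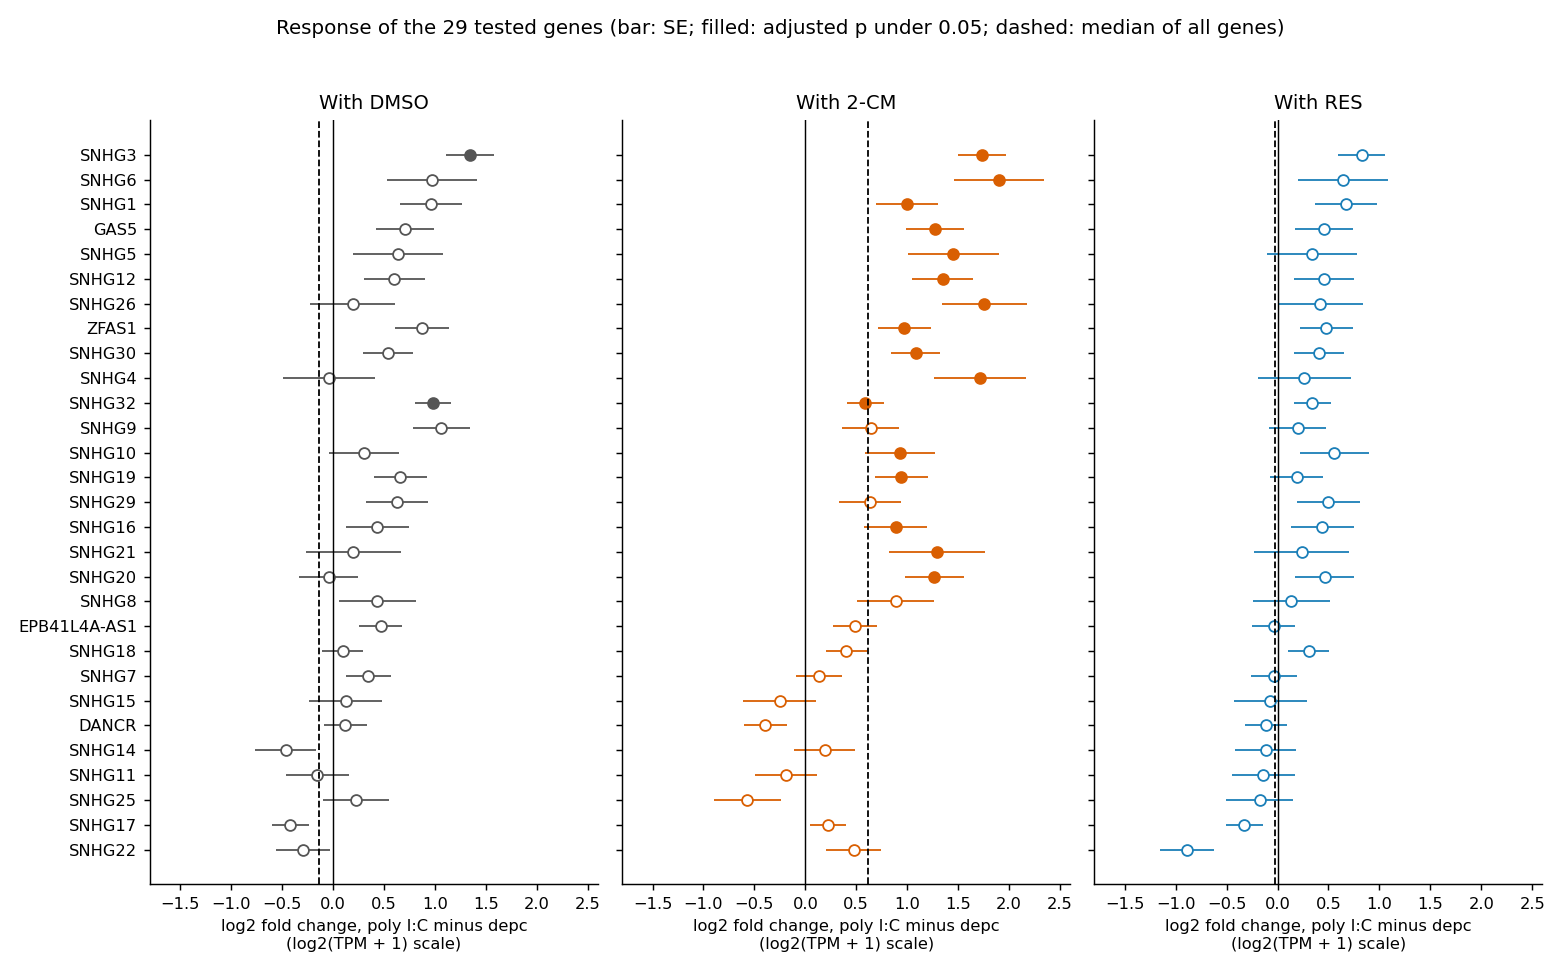
Log2 fold change of poly I:C against depc for the 29 tested hosts, on the log2(TPM + 1) scale, with DMSO (left), 2-CM (middle) and RES (right). Bars are standard errors, filled points passed the test, and the dashed line is the median of all genes (-0.14, 0.61 and -0.03). The hosts are ordered by their average response, from SNHG3 at 1.30 to SNHG22 at -0.24.

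In the authors' deposited table for 2-CM, 7 hosts were higher (23% of all genes with an adjusted p) and 6 lower (23.5%). In the authors' deposited table the 7 were GAS5, SNHG1, SNHG3, SNHG4, SNHG5, SNHG6 and SNHG26, with log2 fold changes from 0.57 to 1.11, and the 6 were DANCR, SNHG7, SNHG11, SNHG15, SNHG17 and SNHG25, from -0.58 to -1.67. DANCR had a log2 fold change of -1.24 there (adjusted p = 1.22e-10 in the authors' deposited table), against -0.39 on the TPM scale. The median of all genes with an adjusted p was 0.08 in the authors' deposited table. In the authors' deposited table for DMSO, SNHG3 was the 1 host called, at 1.57 (adjusted p = 0.00666, beside 0.751% of genes called higher), and 26 of 29 hosts lay above 0. In the authors' deposited table for RES no host was called, beside 0.363% of all genes, and 22 lay above 0.

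With RES, no host passed the test by limma, beside 0.442% of all genes called in either direction. Unadjusted, 2 of 29 hosts had p under 0.05, a smaller share than the 2409 of 17185 genes. The median log2 fold change was 0.31 for the hosts against -0.03 for all genes. In 11 hosts both poly I:C libraries lay above both depc libraries, against 6.05% of all genes, and in 2, SNHG17 and SNHG22, both lay below, against 24.1%. SNHG3 had the largest positive value of the 29, 0.82 ± 0.23, and SNHG22 the largest negative one, -0.89 ± 0.27 (adjusted p = 0.177 and 0.197, limma). SNHG22 reached 1 TPM only in depc libraries, DMSO depc replicate 2 (1.04) and both RES depc replicates (2.29 and 1.98). It passed the filter through these, so the filter itself favours a lower value with poly I:C.

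Averaged over the 3 compounds, which uses every library, 16 of the 29 hosts rose with poly I:C and none fell by limma, beside 13.4% of all genes called higher and 17.8% called lower. The hosts had a median of 0.59 and all genes of 0.16. SNHG3 changed by 1.30 ± 0.14 (adjusted p = 0.000908, limma), SNHG6 by 1.17 ± 0.26 (adjusted p = 0.0124), SNHG1 by 0.88 ± 0.18 (adjusted p = 0.00898) and GAS5 by 0.81 ± 0.17 (adjusted p = 0.00949). ZFAS1 changed by 0.77 ± 0.15 (adjusted p = 0.00801, limma), SNHG32 by 0.64 ± 0.10 (adjusted p = 0.00453) and SNHG19 by 0.60 ± 0.15 (adjusted p = 0.0208). The remaining 9 that rose were SNHG5, SNHG9, SNHG10, SNHG12, SNHG16, SNHG20, SNHG26, SNHG29 and SNHG30, with changes from 0.56 to 0.81.

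In 8 hosts, GAS5, SNHG1, SNHG3, SNHG12, SNHG29, SNHG30, SNHG32 and ZFAS1, both poly I:C libraries exceeded both depc libraries under all 3 compounds, against 3.14% of all genes. No host lay lower in all 3, against 12.6%. The average response of 8 hosts (GAS5, SNHG1, SNHG3, SNHG6, SNHG12, SNHG30, SNHG32 and ZFAS1) passed the test whichever single library was left out. Of the 16, SNHG3, SNHG6, SNHG12, SNHG26 and ZFAS1 also passed both with median-of-ratios scaling and with GC adjustment. Their averages after GC adjustment were smaller, 0.99, 0.47, 0.74, 0.26 and 0.49 in that order. How often other called genes passed in the same fits is not given here, so neither list of hosts is set against other genes. SNHG12 is overlapped on the opposite strand by TRNAU1AP, at a mean of 36.6 TPM. The average change of TRNAU1AP was 0.56 (adjusted p = 0.0116, limma), and the part of its reads in the SNHG12 values was not tested. GC adjustment took GAS5 to 0.22 and SNHG1 to 0.28 (adjusted p = 0.217 and 0.144, limma). The count fell from 16 to 8 without DMSO depc replicate 2, DMSO poly I:C replicate 1 or 2-CM poly I:C replicate 2, to 9 without 2-CM poly I:C replicate 1, and to 10 without 2-CM depc replicate 2 or either RES replicate numbered 2. SNHG15, DANCR, SNHG11, SNHG14, SNHG17, SNHG22 and SNHG25 had averages from -0.24 to -0.07 and did not pass the test. After GC adjustment 12 hosts passed as higher and 1 as lower, and the shares of all genes called in that fit are not given. SNHG14 was called lower, by 0.78 (adjusted p = 0.00629, limma), and SNHG25 turned to 0.31 (adjusted p = 0.0397). SNHG14 averaged 0.467 TPM and reached 1 TPM in 2 libraries, DMSO depc replicate 1 (1.16) and RES depc replicate 1 (1.17). The filter thus favours a lower value with poly I:C, and the 0.78 is not read as a fall of the RNA.

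**Figure D3:**
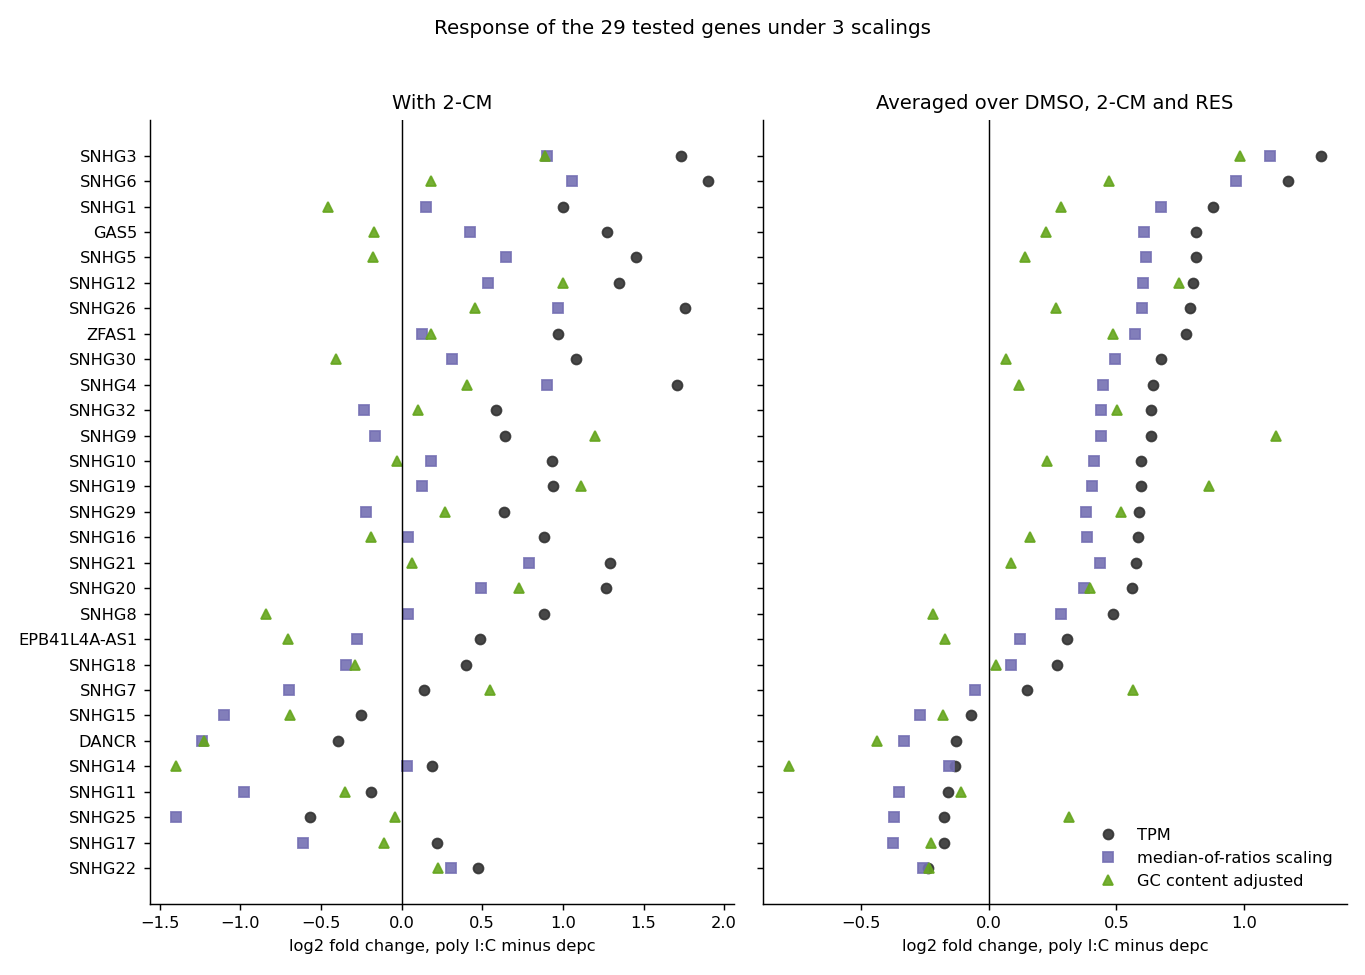
Log2 fold change of poly I:C against depc for the 29 tested hosts with 2-CM (left) and averaged over the compounds (right), from TPM (circles), median-of-ratios scaling (squares) and GC-adjusted values (triangles). With 2-CM, 25 hosts lay above 0 from TPM, 18 under median-of-ratios scaling and 14 after GC adjustment, and on average 22, 21 and 21.

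Setting the hosts by what they carry gave the following. Of the 12 that hold only box C/D snoRNAs, 10 rose on average (median 0.66), and of the 10 that hold only box H/ACA snoRNAs, 2 rose, SNHG3 and SNHG9 (median 0.23). Of the 3 with both boxes 2 rose (median 0.80), and of the 4 with a scaRNA 2 rose (median 0.57). Of all genes, 13.4% were called higher and 17.8% lower in the same fit, with a median of 0.16. Under median-of-ratios scaling 6 of the 12, 1 of the 10, 2 of the 3 and 0 of the 4 rose. After GC adjustment 6 of the 12, 3 of the 10, 2 of the 3 and 1 of the 4 rose. SNHG14, of the 12 and at a mean of 0.467 TPM, was called lower. The shares of all genes called in these 2 fits are not given here. Of the 6 with the start motif shown above, 5 rose and SNHG4 did not pass the test (adjusted p = 0.0838, limma), with changes from 0.60 to 0.81. Of the 19 with a promoter that lacks it there, 9 rose, with changes from -0.24 to 1.30. A motif lay farther off, within 30 bases, in SNHG16, SNHG26 and SNHG29, which rose, and in SNHG8 and SNHG21, which were not called. Among the 19, the RefSeq windows of GAS5, SNHG3 and SNHG14 lie wholly upstream of the genes in the deposited files. For SNHG14 the window ends at 24823637 and the deposited gene starts at 24978583 on chromosome 15. Whether the motif lies at the deposited starts of these hosts was not examined. With and without the motif, 3 of 6 and 5 of 19 rose under median-of-ratios scaling, and 4 of 6 and 5 of 19 after GC adjustment. SNHG14, counted among the 19, was called lower after GC adjustment. These splits were made with the responses known and were not tested. With snoRNA genes left out, an overlapping gene of 1 TPM or more was present for 15 of the 29 hosts, of which 9 rose, and 7 of the 14 without one rose.

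The difference between compounds in the response to poly I:C passed the test in no host. For 2-CM against DMSO, 0 hosts were called by limma, beside 0.0116% of all genes. Unadjusted, 4 of 29 hosts had p under 0.05, a smaller share than the 5097 of 17185 genes. The hosts had a median difference of 0.45, below the 0.68 of all genes. For RES against DMSO, 0 hosts were called, beside 0% of all genes. Unadjusted, 1 host had p under 0.05, beside 293 of 17185 genes. The median difference was -0.23 for the hosts, against 0.11 for all genes. The number of hosts above 0 for 2-CM against DMSO was 22 from TPM and 17 from FPKM, but 6 with median-of-ratios scaling and 7 after GC adjustment. The median of all genes moved too, from 0.68 to 0.36, -0.09 and 0.02.

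No difference between a compound and DMSO under the same transfection passed the test in any host. With depc, 2-CM against DMSO gave 0 calls by limma (0.0349% of all genes) and RES against DMSO gave 0 (1.03% of all genes). With poly I:C, 2-CM against DMSO gave 0 (0.105% of all genes) and RES against DMSO gave 0 (0.157% of all genes). For 2-CM with depc, 3 of 29 hosts and 831 of 17185 genes had an unadjusted p under 0.05 (limma). These numbers were 6 and 2524 for RES with depc, 7 and 5884 for 2-CM with poly I:C, and 4 and 2296 for RES with poly I:C. The host counts are not read as an excess. The smallest adjusted p-values were 0.107 for SNHG7 with RES and depc (log2 difference 0.85 ± 0.23, limma) and 0.0905 for SNHG17 with 2-CM and poly I:C (0.88 ± 0.18, limma). SNHG7 hosts SNORA17A and SNORA17B, and SNHG17 hosts SNORA71A, SNORA71B, SNORA71C and SNORA71D. After GC adjustment 3 hosts passed for RES with depc, 2 of them lower, and 3 for RES with poly I:C, all lower. The shares of all genes called in that fit are not given here, so these counts are not set against other genes.

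The transcripts behind the gene values shifted in some hosts, as far as StringTie could divide reads among isoforms. SNHG32 with DMSO, chosen after its values were seen, is given in full. Its 610-base transcript ENST00000375635.6 held 16.2% and 11.3% of SNHG32 TPM in the depc libraries and 76.6% and 61.8% in the poly I:C libraries. The 1053-base transcript ENST00000375640.7 held 43.3% and 76.4% and then 5.95% and 1.05%. With 2-CM the short form held 5.004% and 0% and then 29.8% and 0%, and with RES 0% and 4.94% and then 7.39% and 5.65%. TPM divides by transcript length, and the authors' deposited table gave SNHG32 a log2 fold change of 0.73 with DMSO (adjusted p = 0.554). The part of the transcript shift in the 0.98 from TPM was not tested.

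Some annotated isoforms keep an intron and so hold a snoRNA within an exon. Such isoforms existed for 21 of the 29 hosts, and a median of 22.0% of gene TPM lay on them in DMSO depc and 26.9% in DMSO poly I:C. With 2-CM the medians were 20.6% and 28.0%, and with RES 29.01% and 27.1%. No such share was computed for other genes, so these values describe the hosts alone. In SNHG5 with DMSO it was 21.6% and 17.9% against 38.0% and 37.7% with poly I:C, and in SNHG3 it was 32.5% and 35.4% against 24.1% and 23.5%. With DMSO the libraries did not overlap in 6 of the 21 hosts with poly I:C higher and in 6 with it lower. With 2-CM the numbers were 5 higher and 1 lower, with RES 3 and 3, and no direction is read from these counts. In SNHG25, the host of SNORD104, with DMSO it was 78.9% and 75.8% against 64.4% and 59.6%. In GAS5 with 2-CM it was 30.3% and 46.8% against 53.3% and 50.7%.

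**Figure D4:**
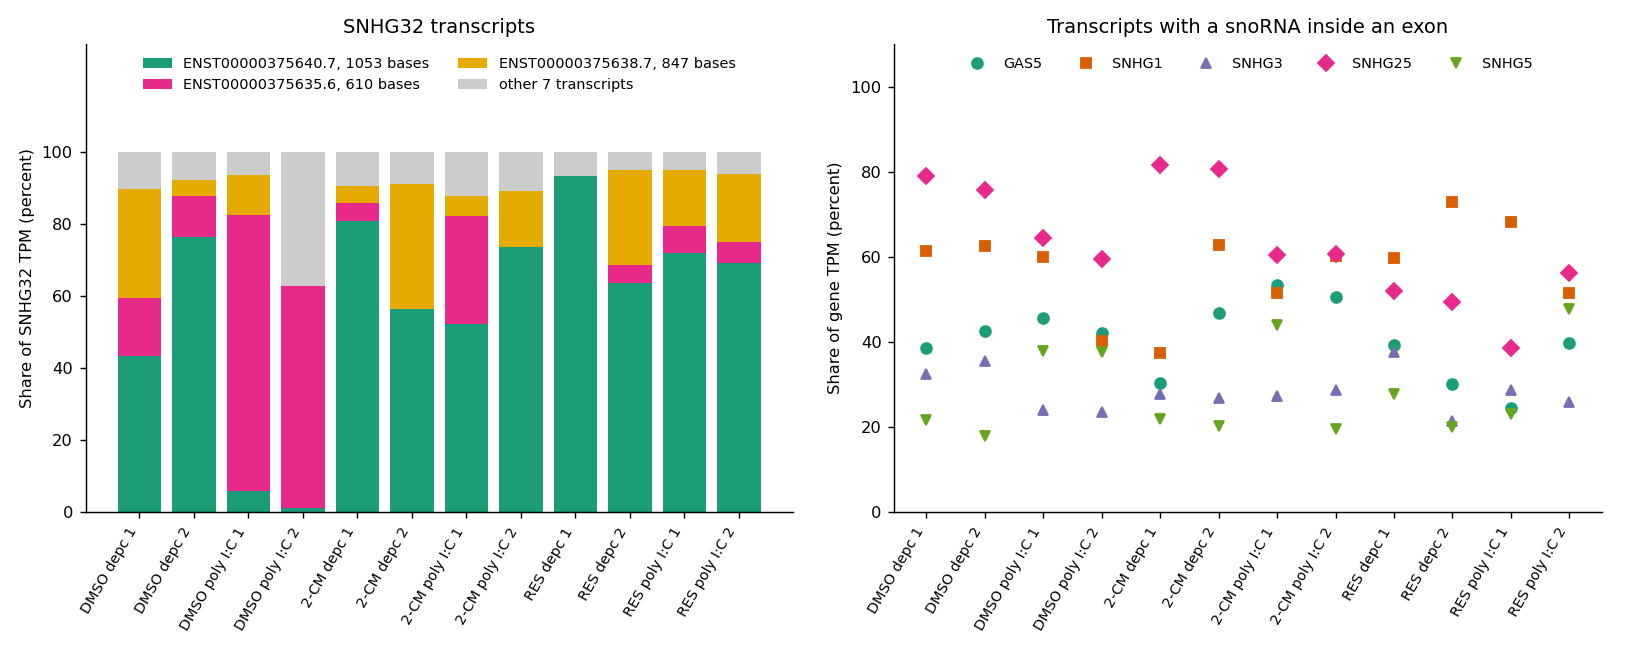
Share of SNHG32 TPM on each transcript in each library (left, stacked bars, percent) and share of gene TPM on transcripts that hold a snoRNA inside an exon for 5 hosts (right, percent). In the DMSO poly I:C libraries the 610-base transcript of SNHG32 held 76.6% and 61.8%, against at most 29.8% elsewhere.

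The snoRNAs themselves were hardly seen, and mature snoRNAs lack the poly(A) tail that the library kit selects. Of the 140 snoRNA genes annotated inside the hosts in the deposited files, 11 reached 1 TPM in at least 2 libraries and 71 were listed at 0 in every library. SNORD104, within SNHG25, had the highest mean, 27.9 TPM, and ran from 18.2 to 37.1 TPM. SNORA73B, within SNHG3, measured 2.97 and 3.62 TPM in DMSO depc and 12.4 and 7.16 TPM in DMSO poly I:C. With 2-CM it measured 7.82 and 8.05 and then 20.3 and 19.3 TPM, and with RES 14.6 and 2.40 and then 8.49 and 6.90 TPM. Depc and poly I:C values did not overlap with DMSO and 2-CM, and overlapped with RES. Host RNA that keeps the intron cannot be told apart from the snoRNA here.

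Genes around this pathway were summarised from lists chosen with earlier results of these data known. Beside their counts by limma stand the shares of all genes called: 0.797% higher and 3.28% lower with DMSO, 37.5% and 11.8% with 2-CM, and 0.442% in either direction with RES. Of 22 factors of nonsense-mediated decay, 2 fell with DMSO, SMG5 by 0.99 and SMG6 by 0.88. With 2-CM 10 rose and 2 fell (largest PNRC2, 2.88, and MAGOHB, 2.26), shares near those of all genes, and 0 of the 22 passed with RES.

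Of 21 protein-coding targets of nonsense-mediated decay, 0 rose and 2 fell with DMSO, SMG5 and TBL2, the latter by 0.83. With 2-CM 8 rose and 3 fell, again near the shares of all genes, the largest changes being those of SRSF3 (2.35) and ORC3 (2.31). Their median with 2-CM was 0.24 on the TPM scale, beside 0.61 for all genes. With DMSO the median of these targets was 0.17, beside -0.14 for all genes, and with RES 0.0013, beside -0.03. Of 20 other snoRNA hosts, protein-coding except the pseudogene CCT6P1, 0 rose and 1 fell with DMSO, the elongation factor EEF2, by 1.02. With 2-CM 4 rose and 6 fell, with a median of 0.60, and EIF4A2 (2.57) and CCT6P1 (2.01) changed most. Of 17 translation factors whose mRNAs start with the oligopyrimidine tract, 1 fell with DMSO, again EEF2, and 5 rose and 5 fell with 2-CM (EIF3E, 2.19, and NAP1L1, 2.17). Of 16 snoRNP proteins, which bind and modify with the snoRNAs, 1 rose with DMSO, NOP10, by 0.96, and 9 rose and 3 fell with 2-CM (NOP58, 1.92, and ZNHIT6, 1.81). With RES 0 genes of these last 4 lists passed.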

How the data were processed

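Polyadenylated RNA of 12 libraries in 6 groups was measured with a stranded paired-end kit. Per the submitters' processing notes, bcl2fastq 2.20, HISAT2 2.1.0, StringTie and DESeq2 were used with hg38. StringTie 2.0.4 was run by the authors on GENCODE 32 with no strand option, per the file headers, and the deposited files give coverage, FPKM and TPM for 227462 transcripts. The authors' deposited tables, per the file headers, give log2 fold changes, standard errors and adjusted p-values. Coordinates are those of the deposited files, counted from base 1.

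Transcript TPM was summed to genes in Python 3.11.15. Gene names came from any of the 12 files or, where none gave one, from the authors' tables. Reads were estimated as coverage times length over 101. No count table was used, so the test was limma 3.58.1 in R 4.3.3. It fitted 6 group means to log2(TPM + 1) over all 12 libraries (6 residual degrees of freedom, 2.74 prior) and the 17185 genes that reached 1 TPM in 2 or more libraries; the scale understates changes of low genes. In each of 10 contrasts, calls needed an adjusted p (Benjamini-Hochberg) under 0.05. The script was tested on simulated data. No column of other samples was set aside (0). One list of genes is not reported here.

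Values in every library are given for GAS5, SNHG1, SNHG19, ZFAS1, EPB41L4A-AS1, DANCR and, per contrast and direction, the 3 called hosts of largest change. Of the other lists only the 2 largest called changes per contrast are named. The members, lists and alternatives were chosen with earlier results of these data known. Alternatives were FPKM, median-of-ratios scaling, no filter, a pseudocount of 0.1, a replicate block, a fit of only the groups compared, GC adjustment (a spline with 5 degrees of freedom per library) and each library left out. Standard errors rest on 2 libraries a group.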

Additional observations from a re-analysis of the deposited data

Results flagged for a closer look

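In SNHG17, the host of SNORA71A to SNORA71D, the response to poly I:C had opposite signs with 2-CM and RES on the TPM and FPKM scales. It measured 36.0 and 39.1 TPM in 2-CM depc and 47.5 and 40.6 in 2-CM poly I:C, so both poly I:C libraries were higher. In RES depc it measured 31.0 and 35.2 TPM and in RES poly I:C 28.3 and 24.2, so both were lower. The difference between the responses was 0.55 (log2) and was not tested. With median-of-ratios scaling both were negative (-0.61 with 2-CM and -0.28 with RES), as they were after GC adjustment (-0.11 and -0.24). They were also both negative in the authors' deposited table (-0.58, adjusted p = 0.00576, and -0.27, adjusted p = 0.999).

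In SNHG22, the host of SCARNA17, the values were 0.102 and 0.055 TPM in 2-CM depc, 0.126 and 0.989 in 2-CM poly I:C, 2.29 and 1.98 in RES depc and 0.56 and 0.835 in RES poly I:C. Both poly I:C libraries were higher with 2-CM and lower with RES, a difference of 1.36 (log2) that was not tested. SNHG22 passed the filter only through the RES depc pair and DMSO depc replicate 2 (1.04 TPM). The lower values with RES poly I:C are thus set against the libraries that let SNHG22 in. Its mean over all libraries was 0.798 TPM.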

How the results depend on the processing

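The numbers of host genes called depended on the scaling and on single libraries. They are given without the share of all genes called under each setting, so they show only how the counts moved. With DMSO, 2 calls became 1 with FPKM, 1 with median-of-ratios scaling, 0 when only the groups compared were fitted and 11 after GC adjustment, and from 0 to 3 with 1 library left out. With 2-CM, 16 became 6 with median-of-ratios scaling, 1 with no filter and 10 after GC adjustment, and from 0 to 17 with 1 library left out. With RES, 0 became 1 after GC adjustment. For the average, 16 became 9 with median-of-ratios scaling and 10 with no filter, and from 8 to 19 with 1 library left out. RES against DMSO went from 0 to 3 after GC adjustment, both with depc and with poly I:C. With 2-CM, SNHG32 was -0.23 under median-of-ratios scaling, and GAS5 was -0.17 and SNHG1 -0.46 after GC adjustment. The cause of these changes was not tested. The pseudocount of 0.1 left 2, 14, 0 and 16 calls with DMSO, 2-CM, RES and on average.

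Replicate numbers were used as a block in a separate fit, which gave 2, 16, 0 and 16 calls in the same order. Correlations of same-numbered deviations over 15 pairs of groups ran from -0.80 to 0.76. They were over 0.1 in the 10 pairs without RES poly I:C and negative in the 5 with it, so the numbers were not taken to pair the samples, although the same numbers deviated together in 5 groups. The block assumes the same direction in every group, so its counts do not say whether this deviation mattered. With 2 libraries a group and from 1 estimated read in the lowest library for SNHG22, small changes of rare hosts were not detectable at this depth.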
